A study of Rattus norvegicus with 9 samples.

Results

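Cultured rat heart muscle cells were followed through low oxygen and reoxygenation for 4 genes of cardiac fuel use: Ppargc1a (ENSRNOG00000004473), Ppara (ENSRNOG00000021463), Cpt1b (ENSRNOG00000010438) and Pdk4 (ENSRNOG00000009565). They were chosen as fatty acid oxidation genes and mitochondrial regulators, by Ensembl ID, and all 4 were found among the 30560 IDs of the count tables. All 4 passed the filter on low counts, as did 15879 genes in all. The study sequenced total RNA from rat cardiomyocytes, named NRCM in the labels, in 9 libraries. The 3 libraries of the normoxia group came from cells kept in normal oxygen. The 3 H/R-DMSO libraries came from cells held in a hypoxic chamber at 0.1% oxygen for 6 h, with neither glucose nor pyruvate in the medium, and then returned to standard medium at 21% oxygen for 12 h (hypoxia and reoxygenation, H/R), where they received the solvent DMSO. The 3 H/R-AS8351 libraries came from cells taken through the same course, with AS8351 at 0.5 µM, which the labels call an inhibitor of the histone demethylase Kdm5b, dissolved in DMSO and given during reoxygenation. Whether DMSO was also given in normoxia, and whether replicate libraries stem from separate cultures, is not in the labels. The p-values therefore reflect the spread among these 9 libraries alone, and that spread may be technical.

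The heart takes most of its energy from fatty acids, which are burned in the mitochondria, and can shift towards glucose. Ppara is a nuclear receptor that is activated by fatty acids and switches on genes of their uptake and oxidation, and Ppargc1a is a coactivator that works with such receptors and drives the formation of mitochondria. Cpt1b and Pdk4 are textbook targets of this pair. Cpt1b is the muscle form of the enzyme that couples long-chain fatty acids to carnitine, the gate for their entry into mitochondria, and Pdk4 is a kinase that shuts down pyruvate dehydrogenase and so holds back the oxidation of glucose.

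After H/R, Ppara fell to 0.644 and Cpt1b to 0.676 of the normoxia level (3 libraries each). Pdk4 fell to 0.837 of it, a call that was lost when libraries were scaled to their total count alone, and Ppargc1a was not called changed. With AS8351, where 13.1% of all genes tested were called above H/R-DMSO, all 4 genes rose, by between 1.19-fold for Ppargc1a and 1.47-fold for Ppara. Against normoxia they then differed: Pdk4 was 1.22-fold higher and Cpt1b stood at 0.86 of it, while Ppara and Ppargc1a were not called different. Scaling to the total count removed the call of Cpt1b here and added one for Ppargc1a. Levels are given in CPM, counts scaled to a common library size, after normalisation by TMM, which sets each gene against the bulk of the other genes in its library. Called means an adjusted p below 0.05 in edgeR's quasi-likelihood test over all genes tested. The files give no gene length, so levels are compared between groups for 1 gene and not between genes.

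**Figure D1:**
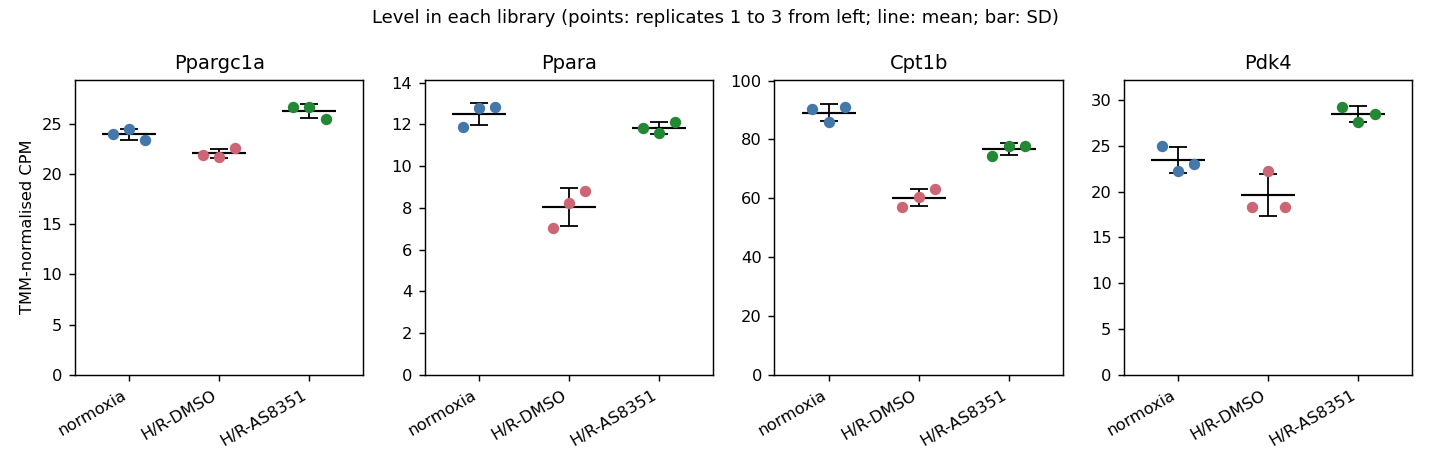
TMM-normalised CPM (vertical axis, from 0) of the 4 genes in each of the 9 libraries, with 1 panel per gene, points for replicates 1 to 3 from left to right, a line for the group mean and a bar for the SD (n = 3). On this scale all 4 genes are lowest on average in H/R-DMSO (by total count, Ppargc1a is not), and Ppargc1a and Pdk4 are highest in H/R-AS8351.

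The libraries held between 34442733 and 54888975 counts. The TMM factors were between 0.934 and 0.937 in normoxia and between 1.015 and 1.049 in the H/R groups, so the scaling itself differed between the groups. The lowest count of a member was the 263 counts of Ppara in H/R-DMSO replicate 1, where counting error alone is 6.17%, and the highest was the 4421 counts of Cpt1b in normoxia replicate 2, where it is 1.5%. In a culture that holds several cell types, fewer cells of a type and less RNA per cell cannot be told apart. Markers of cardiomyocytes and of other heart cells were not analysed here, since the tables hold IDs without names and the rat gene table used matched 0 of them. For the same reason, the other genes of fatty acid oxidation are not described.

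Promoter sequences of 3 of the 4 genes, Ppargc1a, Ppara and Pdk4, were found in the RefSeq table of build GRCr8. They are shown because the genes moved in the same direction with AS8351. Each run is the 250 bases before the annotated start, 5′ to 3′ on the gene's own strand. Capitals mark matches, on either strand, to the motifs searched. The starts used for Ppargc1a and Ppara lie inside the spans of these genes, so other transcripts can start elsewhere.

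Ppargc1a, chr14:63634058-63634307, plus strand: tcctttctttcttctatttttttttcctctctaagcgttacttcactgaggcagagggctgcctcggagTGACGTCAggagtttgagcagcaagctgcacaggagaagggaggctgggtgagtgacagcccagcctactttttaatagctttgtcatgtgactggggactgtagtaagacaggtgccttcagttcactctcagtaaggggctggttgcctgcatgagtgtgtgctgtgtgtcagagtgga
Ppara, chr7:118712357-118712606, plus strand: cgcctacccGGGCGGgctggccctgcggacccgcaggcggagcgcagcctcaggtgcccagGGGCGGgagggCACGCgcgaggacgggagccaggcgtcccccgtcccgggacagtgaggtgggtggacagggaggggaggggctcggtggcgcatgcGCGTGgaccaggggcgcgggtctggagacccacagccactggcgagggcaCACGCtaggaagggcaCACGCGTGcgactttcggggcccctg
Pdk4, chr4:34568330-34568579, minus strand: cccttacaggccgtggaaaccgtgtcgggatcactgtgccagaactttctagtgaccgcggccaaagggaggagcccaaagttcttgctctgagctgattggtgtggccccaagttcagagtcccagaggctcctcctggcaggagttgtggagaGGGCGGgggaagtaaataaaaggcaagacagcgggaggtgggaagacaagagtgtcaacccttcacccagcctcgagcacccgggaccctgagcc

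The Ppargc1a window holds TGACGTCA, the cAMP response element, beginning 181 bases before the start. This motif is in 1.59% of the 33469 RefSeq promoter windows of the same length. The Ppara window holds 5 matches to GCGTG, a core of the element bound by hypoxia-inducible factors, of which the last pair overlap, and 2 matches to the GC box GGGCGG. At least 1 match to the first motif is in 25.9% of all windows, and to the second in 30.5%. The share of windows with as many matches as Ppara was not counted. The Pdk4 window holds 1 GC box, beginning 95 bases before the start. The windows differ in base composition, with 50.4% G and C for Ppargc1a, 76% for Ppara and 59.2% for Pdk4, against a median of 51.2% over all windows. No window of the 3 holds AGGTCANAGGTCA, the repeat bound by Ppara with its partner receptor (0.0508% of all windows), or its single unit AGGTCA (14.1%). The other motifs without a match were TCAAGGTCA, bound by oestrogen-related receptors (0.388%), ACGTG, the other hypoxia core (16.6%), and the TATA box TATAAA (12.9%). TCAAGGTCA and the repeat contain AGGTCA, so these searches are not independent. No match says only that these letters are not in these bases. Binding was not measured here.

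Ppara, the receptor, stood at 11.9, 12.8 and 12.9 CPM in the normoxia libraries and at 7.03, 8.26 and 8.81 CPM in H/R-DMSO. In H/R-AS8351 it stood at 11.8, 11.6 and 12.1 CPM. Every H/R-DMSO library was below every library of the other groups, while the normoxia and H/R-AS8351 ranges overlapped. From a mean of 12.5 ± 0.544 CPM (SD, n = 3), Ppara fell after H/R to 8.03 ± 0.913 CPM (log2 fold change -0.63, SE 0.10, edgeR adjusted p = 7.04e-07). The coefficient of variation in H/R-DMSO was 11.4%, above the counting error of 4.9% to 6.17% in those libraries, and that in normoxia was 4.35%. With AS8351 Ppara rose to 11.8 ± 0.28 CPM (log2 fold change 0.56 against H/R-DMSO, SE 0.10, edgeR adjusted p = 2.95e-05). The coefficient of variation in H/R-AS8351 was 2.37%, below the counting error of 4.25% to 4.72% in those libraries.

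The level of Ppara with AS8351 was not called different from normoxia (log2 fold change -0.08, 95% interval -0.27 to 0.11, edgeR adjusted p = 0.552). The interval allows a difference in either direction. Scaled to the total count, the same log2 fold change was 0.05 (adjusted p = 0.722), so its sign rested on the scaling. When the mean CPM of H/R-DMSO is set to 0% and that of normoxia to 100%, Ppara lay at 84.5%, 79.2% and 91.7% in the 3 H/R-AS8351 libraries.

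Cpt1b, the carnitine coupling enzyme, stood at 90.3, 85.9 and 91.2 CPM in normoxia, at 57.1, 60.4 and 63.0 CPM in H/R-DMSO and at 74.3, 77.8 and 77.7 CPM in H/R-AS8351. None of the 3 ranges overlapped. From 89.1 ± 2.79 CPM (SD, n = 3) it fell after H/R to 60.2 ± 2.92 CPM (log2 fold change -0.56, SE 0.05, edgeR adjusted p = 1.85e-13). It rose with AS8351 to 76.6 ± 1.98 CPM, by 0.35 on the log2 scale against H/R-DMSO (SE 0.05, edgeR adjusted p = 2.54e-07). Cpt1b carried the most counts of the 4 genes, and its standard errors were the smallest.

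With AS8351, Cpt1b remained lower than in normoxia, with a log2 fold change of -0.22 (SE 0.05, edgeR adjusted p = 0.000227). This call was lost with scaling to the total count, where the log2 fold change was -0.09 (adjusted p = 0.104). On the scale from H/R-DMSO at 0% to normoxia at 100%, Cpt1b lay at 48.9%, 60.8% and 60.7% in the H/R-AS8351 libraries. These values were below the 79.2% to 91.7% of Ppara in the same libraries, and the difference was not tested.

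Pdk4, the kinase that holds back pyruvate oxidation, stood at 25.0, 22.2 and 23.0 CPM in normoxia, at 18.4, 22.3 and 18.3 CPM in H/R-DMSO and at 29.3, 27.6 and 28.5 CPM in H/R-AS8351. H/R-DMSO replicate 2 stood apart from the other H/R-DMSO libraries and reached the normoxia range, so these groups overlapped. All H/R-AS8351 libraries were above all others. From 23.4 ± 1.42 CPM (SD, n = 3) Pdk4 fell after H/R to 19.6 ± 2.28 CPM (log2 fold change -0.26, SE 0.08, edgeR adjusted p = 0.00409). Without H/R-DMSO replicate 2 the log2 fold change was -0.35 (adjusted p = 0.000214). Scaled to the total count, the fall was no longer called (log2 fold change -0.09, adjusted p = 0.285).

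With AS8351, Pdk4 rose to 28.5 ± 0.855 CPM (log2 fold change 0.54 against H/R-DMSO, SE 0.07, edgeR adjusted p = 2.77e-07). This level was also above that of normoxia (log2 fold change 0.28, SE 0.07, edgeR adjusted p = 0.00184). Scaling to the total count gave 0.41 for that difference (adjusted p = 1.23e-05). Pdk4 was thus the only one of the 4 genes called above normoxia with AS8351 under TMM.

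Ppargc1a, the coactivator, stood at 24.0, 24.5 and 23.4 CPM in normoxia, at 21.9, 21.7 and 22.6 CPM in H/R-DMSO and at 26.7, 26.7 and 25.5 CPM in H/R-AS8351. None of the 3 ranges overlapped, but the steps between them were small. By total count, the normoxia and H/R-DMSO ranges overlapped. The coefficients of variation were 2.28% in normoxia, 2.12% in H/R-DMSO and 2.74% in H/R-AS8351. These lay below the counting error of 2.8% to 3.58%, so the libraries agreed more closely than their counts can resolve. The means were 24.0 ± 0.546 CPM in normoxia, 22.1 ± 0.468 CPM in H/R-DMSO and 26.3 ± 0.719 CPM in H/R-AS8351 (SD, n = 3). The change after H/R was not called, with a log2 fold change of -0.12 (95% interval -0.26 to 0.02, edgeR adjusted p = 0.132). Its direction rested on the scaling: by total count, Ppargc1a went from 22.4 ± 0.553 to 23.1 ± 0.526 CPM, and the log2 fold change was 0.04 (adjusted p = 0.612).

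The rise of Ppargc1a with AS8351 against H/R-DMSO was called, with a log2 fold change of 0.25 (SE 0.07, edgeR adjusted p = 0.00427) and 0.21 by total count (adjusted p = 0.0151). Against normoxia the log2 fold change was 0.13 (SE 0.07, edgeR adjusted p = 0.117), which was not called. By total count it was 0.26 (adjusted p = 0.00143), which was called. The place of Ppargc1a relative to normoxia therefore depended on the scaling, whereas its rise over H/R-DMSO was called under TMM, RLE, upper-quartile and total-count scaling.

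**Figure D2:**
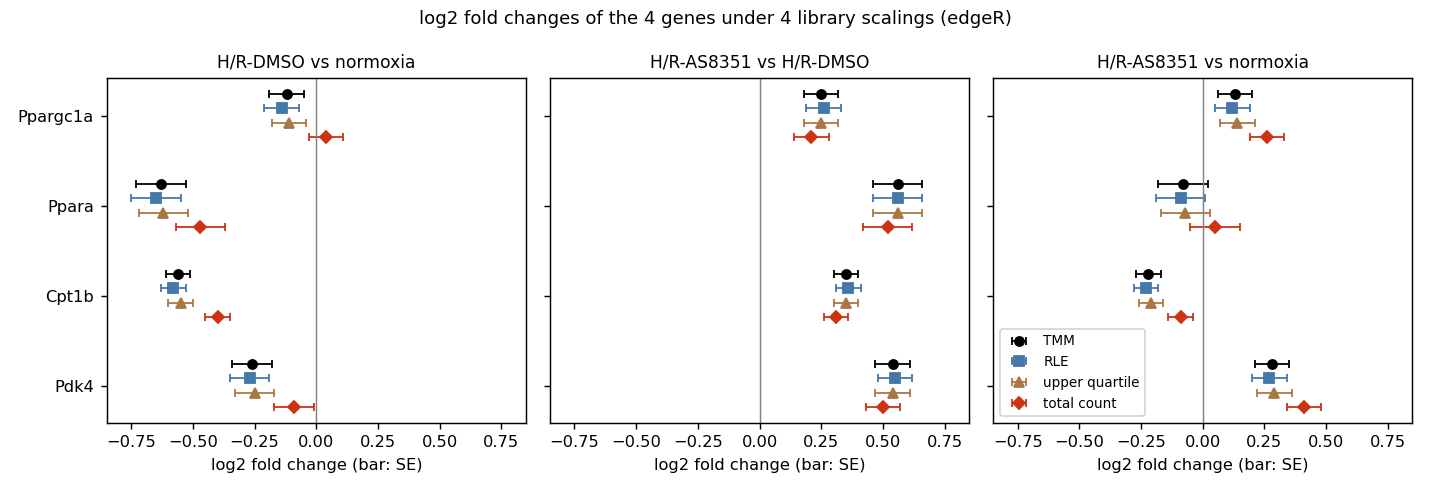
log2 fold change (horizontal axis, bars for the SE) of the 4 genes in the 3 comparisons under TMM, RLE, upper-quartile and total-count scaling of the libraries. TMM, RLE and upper quartile lie close together, while the total count moves all 4 genes to the right in both comparisons with normoxia, for Ppargc1a after H/R from -0.12 to 0.04.

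H/R-DMSO was compared with normoxia to see what the whole H/R course, with the solvent, did to the cells. In that course low oxygen came together with medium free of glucose and pyruvate, so their effects cannot be told apart. Of the 4 genes, Ppara, Cpt1b and Pdk4 were called lower, where 25.2% of all genes tested were. The H/R-DMSO range lay wholly below the normoxia range for Ppara, Cpt1b and Ppargc1a, as for 27.5% of all genes. By total count the Ppargc1a ranges overlapped. The median log2 fold change of the 4 genes was -0.41, against 0.03 over all genes tested. The fall of Ppara was among the larger ones, with 9.77% of genes having a lower log2 fold change, and for Cpt1b this share was 11.4%. Pdk4, with 23.6%, and Ppargc1a, with 34.2%, lay nearer to the bulk of genes. Scaling to the total count moved the median of all genes from 0.03 to 0.19 on the log2 scale. It raised the higher genes from 52.1% to 74.3% of those called.

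H/R-AS8351 was compared with H/R-DMSO to see the change with the compound in cells under the same stress. All 4 genes were called higher and had ranges wholly above those of H/R-DMSO, against 13.1% of all genes called higher and 18.2% with such ranges. The median log2 fold change of the 4 genes was 0.44, against -0.01 over all genes tested. Ppara and Pdk4 rose most, to 1.47-fold and 1.45-fold, and a larger change in either direction was seen for 8.92% and 9.4% of genes. Cpt1b rose 1.27-fold and Ppargc1a 1.19-fold, with larger changes in 18.1% and 27.1% of genes. Scaled to the total count, 41% of the called genes were higher, against 56.9% with TMM, and the 4 genes were still called higher. The H/R-DMSO libraries serve in this comparison and in the one with normoxia, so a low value there adds to the fall and to the rise alike.

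H/R-AS8351 was compared with normoxia to see which differences from unstressed cells were left when the compound was given. Here 1 gene was called higher (Pdk4) and 1 lower (Cpt1b), where 19.7% of all genes were called higher and 19.7% lower. The H/R-AS8351 range lay wholly above that of normoxia for Pdk4 and Ppargc1a, as for 24.4% of all genes, and wholly below it for Cpt1b, as for 24.6%. The median log2 fold change of the 4 genes was 0.03, against 0.01 over all genes. By total count the higher genes went from 49.98% to 76.7% of those called, and the median of all genes was 0.13.

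**Figure D3:**
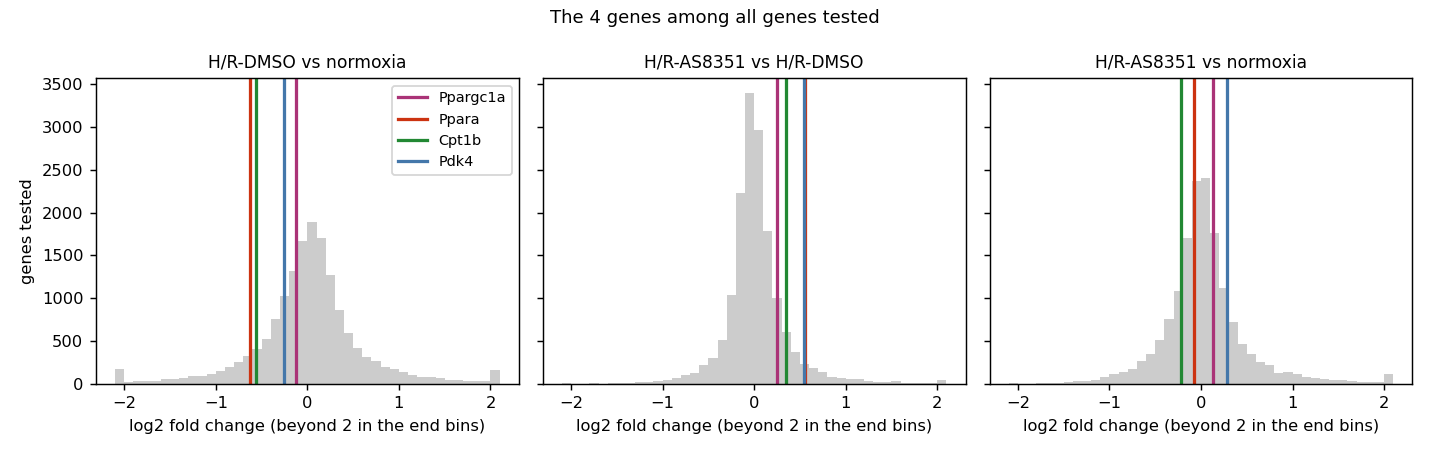
Number of genes tested (vertical axis) by log2 fold change (horizontal axis, in bins of 0.1 with values beyond 2 in the end bins) in the 3 comparisons, with a line for each of the 4 genes. With TMM scaling, after H/R all 4 lie left of 0 (Ppargc1a right of it by total count), with AS8351 against H/R-DMSO all 4 lie right of 0, and against normoxia they lie on both sides between -0.22 and 0.28.

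The ratio of the counts of 2 genes in the same library needs no scaling factor, and showed how the 4 genes changed relative to each other. With 3 libraries against 3, an exact two-sided permutation test cannot go below p = 0.1, so these ratios are described without a test. The log2 ratio of the receptor Ppara to its target Cpt1b was -2.83 ± 0.09 (SD, n = 3) in normoxia and -2.91 ± 0.10 in H/R-DMSO, with ranges that overlapped. With AS8351 it was -2.69 ± 0.05, above both other groups without overlap, though the highest normoxia value and the lowest H/R-AS8351 value both round to -2.75. Ppara was thus higher relative to Cpt1b in every H/R-AS8351 library than in any H/R-DMSO library, and no scaling enters this. The closest of these were H/R-AS8351 replicate 2 (-2.7485) and H/R-DMSO replicate 3 (-2.8368), with Ppara counting errors of 4.25% and 4.9%. Counting error alone can give a gap of that size. Against normoxia the order is not settled. Normoxia replicate 2 (-2.7504) and H/R-AS8351 replicate 2 (-2.7485) lay closer than the Ppara counting errors of 3.9% and 4.25% can resolve.

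The log2 ratio of Ppargc1a to Ppara was 0.94 ± 0.08 in normoxia and 1.46 ± 0.15 in H/R-DMSO (SD, n = 3), without overlap. It was 1.15 ± 0.07 with AS8351, between the other groups and without overlap with either. The log2 ratio of Ppargc1a to Cpt1b was -1.89 ± 0.08 in normoxia, -1.45 ± 0.05 in H/R-DMSO and -1.54 ± 0.07 in H/R-AS8351. Normoxia lay below both H/R groups, whose ranges overlapped at their edges. Relative to Cpt1b, the coactivator was therefore higher in every H/R library than in any normoxia library. Relative to the receptor the values had the same order, but for H/R-AS8351 this order is not settled. H/R-AS8351 replicate 3 (1.07) and normoxia replicate 1 (1.02) lay closer than the Ppara counting errors of 4.31% and 4.51% can resolve.

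The log2 ratio of Cpt1b to Pdk4 was 1.93 ± 0.07 (SD, n = 3) in normoxia, 1.62 ± 0.17 in H/R-DMSO and 1.43 ± 0.08 in H/R-AS8351. Both H/R groups lay below normoxia without overlap, and overlapped each other. H/R-DMSO replicate 3 (1.79) and normoxia replicate 1 (1.85) lay close, with Pdk4 counting errors of 3.41% and 3.11%. The separation of H/R-DMSO from normoxia is therefore within what counting error can give. The ratio of Ppara to Pdk4 was -0.90 ± 0.15 in normoxia, -1.29 ± 0.21 in H/R-DMSO and -1.26 ± 0.04 in H/R-AS8351. The H/R groups overlapped. H/R-DMSO replicate 3, at -1.05, was inside the normoxia range of this ratio. The ratio of Ppargc1a to Pdk4 was 0.04 ± 0.10, 0.18 ± 0.19 and -0.11 ± 0.06 in the same order. The last 2 groups did not overlap, but H/R-DMSO replicate 2 (-0.036) and H/R-AS8351 replicate 2 (-0.048) were nearly tied. These 2 libraries lay closer than the counting errors of 2.75% to 3.58% of the 2 genes can resolve.

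**Figure D4:**
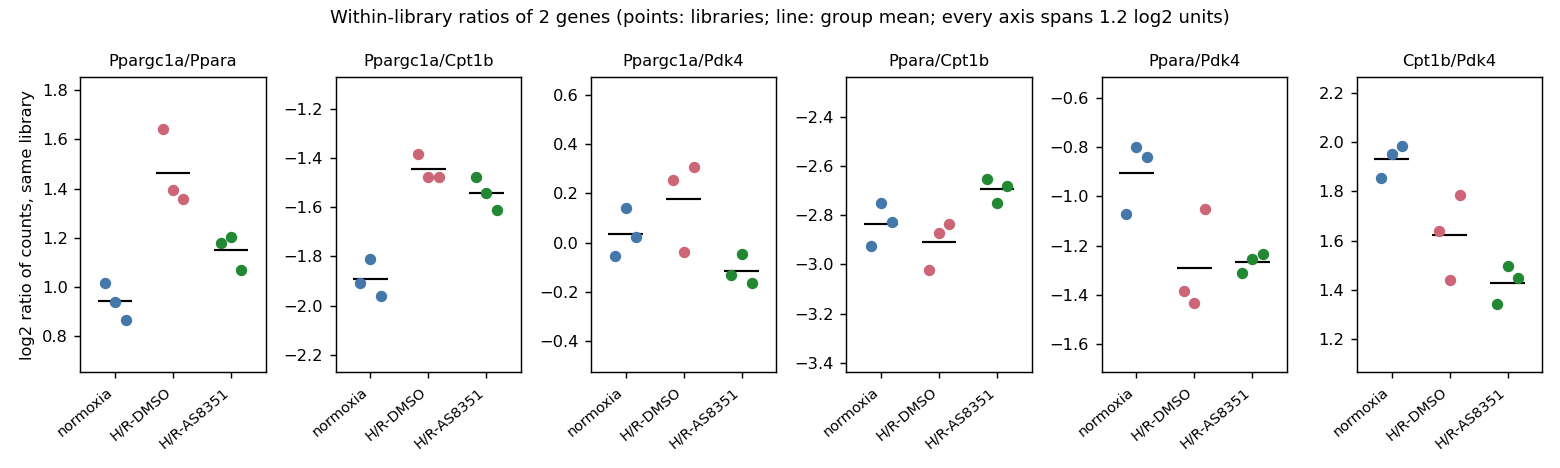
log2 ratio of the counts of 2 genes in the same library (vertical axis, spanning 1.2 log2 units in every panel) for the 6 pairs of the 4 genes, with points for libraries and a line for the group mean (n = 3). Ppargc1a/Ppara is 0.94 in normoxia, 1.46 in H/R-DMSO and 1.15 in H/R-AS8351, while Cpt1b/Pdk4 is lower in both H/R groups than in normoxia.

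The genes of most like pattern were sought by the Pearson correlation of log2 CPM over the 9 libraries among the 11261 other genes whose mean was 5 CPM or more. The 9 points are 3 groups of 3 libraries that share their scaling, so the correlations describe likeness and carry no test. For Cpt1b the closest was ENSRNOG00000013331 (r = 0.9955), with 373 ± 8.89 CPM in normoxia, 303 ± 7.85 in H/R-DMSO and 350 ± 6.53 in H/R-AS8351 (SD, n = 3). For Ppara it was ENSRNOG00000003947 (r = 0.9919), with 50.7 ± 0.608, 34.7 ± 3.3 and 47.3 ± 0.888 CPM. The closest genes to Pdk4 and Ppargc1a had r = 0.973 and r = 0.9675. The pattern of Cpt1b was a common one, with 1265 genes above r = 0.9, and that of Ppara was shared by 373. For Ppargc1a 26 genes and for Pdk4 13 genes lay above that value.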

How the data were processed

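Per the labels' protocols, RNA was taken up in TRIzol and sequenced from NEBNext Ultra II libraries. For each library the authors deposited 1 table of raw counts by Ensembl gene ID. Trimmomatic 0.39, STAR 2.7.3a, featureCounts 2.0.1, DESeq2 1.32.0 and build rn6 are named in the submitters' processing notes. How strand and multi-mapped reads were treated, and with which annotation release, is not given in the sources used here, so overlapping or antisense genes may share counts with the 4 genes. For H/R-AS8351 the table names carry a code that the labels do not explain, so this group was taken from the sample titles.

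The counts were fitted with edgeR 4.0.16 under R 4.3.3: filterByExpr (minimum count 10, minimum total count 15), TMM, and 1 quasi-likelihood fit of the 3 group means to all 9 libraries. The Benjamini-Hochberg adjustment ran over all 15879 genes tested. The SE is the size of the log2 fold change divided by the square root of F. The script was tested on simulated data. Alternatives were 3 other scalings, 2 other filters, DESeq2 1.42.0, limma-voom (limma 3.58.1), the 2 groups alone, a replicate block and each library left out. Within a group, no library was a repeat of another: the lowest chi-square per degree of freedom between 2 libraries was 3.89. Libraries of different groups were not compared in this way.

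The members, lists and tests were chosen with earlier results of these data known. The symbols came with the chosen IDs and were not checked, since the rat gene table (GRCr8) lists an Ensembl ID for 0 of its 47357 genes. Lists of pathway genes and cell type markers were therefore not used. The rule for named genes took the 4 members and, for each, the gene with the highest correlation, limited to 2 IDs that rose and 2 that fell; all 4 such genes were lower after H/R, so the 2 with the highest correlation are named. The motifs, the counts of genes above a correlation of 0.9 and the left-out libraries for ratios were added later.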

Additional observations from a re-analysis of the deposited data

How the results depend on the processing

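The 108 log2 fold changes of the 4 genes with 1 library left out kept their direction and their side of the threshold. Of those under the other alternatives 103 did so, and the 5 exceptions all came from scaling to the total count, whose factors differ from TMM between normoxia and the H/R groups. They were Ppargc1a after H/R (0.04) and against normoxia with AS8351 (0.26), Ppara against normoxia with AS8351 (0.05), Cpt1b in the same comparison (-0.09) and Pdk4 after H/R (-0.09). The counts of genes called stayed within 1.5 times of 8364 after H/R, 3671 with AS8351 and 6257 for H/R-AS8351 against normoxia, and ranged with a library left out from 7635 to 8430, from 2744 to 3592 and from 5459 to 6554. The weakest leave-one-out value among called genes was that of Pdk4 after H/R without H/R-DMSO replicate 3, at -0.20 (edgeR adjusted p = 0.0438).

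The position between H/R-DMSO and normoxia was the least stable measure where these groups lay close. For Pdk4 it was 233%, 627% by total count, 209% on the log2 scale and 199% to 294% with a library left out. For Ppargc1a it was 220% and -556% by total count. For Ppara it was 85.1% and 112% by total count, and for Cpt1b 56.8% and 74.4%. No pairing by replicate number was seen in correlations over all genes tested, which could miss one in part of the genes. The deviations of same-numbered libraries had correlations from -0.019 to 0.039, and those of other libraries from -0.038 to 0.029. A fit with the replicate block called 8539, 3940 and 6468 genes in the 3 comparisons, against 8364, 3671 and 6257 without it. It left the calls of the 4 genes as they were.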
